A study of Homo sapiens with 4 samples.

Results

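To describe how the enzymes that make, activate or break down androgens were expressed before and after resistance to enzalutamide (ENZ), 10 genes were taken by symbol from the 33538 genes of the count matrices: HSD17B4, HSD17B6, HSD17B10, HSD17B11, HSD17B12, SRD5A1, SRD5A3, STS, AKR1C3 and HSD11B2. No cut-off on a measured value set the membership, but the list was chosen with earlier results of these data known. All 10 had UMIs (molecular barcodes, counted once per RNA molecule caught) in each of the 4 single-cell RNA sequencing (scRNA-seq) libraries. LNCaP, the parental line, comes from a human prostate cancer metastasis and depends on the androgen receptor, which ENZ blocks. Parental cells were kept for 48 h in 0.1% DMSO, the solvent (LNCaP), or for 48 h in 10 µM ENZ (LNCaP-ENZ48). LNCaP also gave rise to 2 resistant lines. Stepwise doses of ENZ selected RES-A, the related blocker RD-162 selected RES-B, and the medium of both held 10 µM ENZ. All cells grew in medium with serum and were sorted as living cells, and no androgen was measured. Each group was 1 library of 1 line, so no difference below has a replicate check, and a difference between the lines cannot be told apart from a difference between cultures or library preparations.

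Androgens act by binding the androgen receptor, and a prostate cancer cell can take up weak adrenal precursors and convert them to strong ones. Steroid sulfatase frees the precursor from its sulfate, reductive hydroxysteroid dehydrogenases such as AKR1C3 turn the keto form into testosterone, and a steroid 5-alpha-reductase turns testosterone into dihydrotestosterone. Oxidative dehydrogenases of the HSD17B family run in the other direction, and glucuronidation removes androgens from the cell. Several HSD17B and SRD5A enzymes are named for steroids but are also known for other work, in the oxidation or elongation of fatty acids, in mitochondrial RNA processing or in the making of dolichol.

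After filtering, the libraries held 1782 to 4569 cells and 50208831 to 60838227 UMIs. The median was 27079.5 UMIs per cell in LNCaP and 12138 to 13676 in the others. Any pair of libraries shared 2 to 9 kept barcodes. A level is the UMI total of a gene in a library, put on a common library total (CPM). Brackets hold 95% intervals (exact Poisson for a level, exact conditional binomial for a ratio) that cover counting error only. The luminal markers KRT8, KRT18, EPCAM and HOXB13 were between 92.0 and 918 CPM in all libraries. The summed level of 3 basal markers was 0 to 0.299 CPM and that of 5 markers of steroid-producing cells 0.0190 to 0.578 CPM. Stromal (5), endothelial (2), immune (3) and neuroendocrine (4) markers summed to at most 6.75, 1.04, 1.01 and 4.34 CPM. KLK3, the androgen receptor target that encodes prostate-specific antigen, was at 718 CPM in LNCaP, 94.97 CPM in LNCaP-ENZ48, 0.0349 CPM in RES-A, with 30.5 CPM in RES-B. KLK2, TMPRSS2 and FKBP5, further targets, were at 319, 106 and 19.8 CPM in LNCaP and at 26.7, 25.5 and 10.8 CPM after 48 h of ENZ. In RES-A they were at 0.0872, 7.50 and 17.9 CPM and in RES-B at 23.5, 19.3 and 15.5 CPM, so FKBP5 was within 1.5-fold of LNCaP in both resistant lines (1.11- and 1.28-fold below).

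AKR1C3 had the widest range of the 10 enzymes, a log2 range of 6.10 over the 4 libraries, so the sequence in front of it is shown first. It lies on the plus strand of chr10:5035354-5107686 (GRCh38, GENCODE 44; ENSG00000196139) beside its relatives AKR1C1 and AKR1C2. RefSeq (GRCh38.p14) gives AKR1C3 a pair of start sites. The windows from 250 bases before to 50 bases after them, chr10:5048531-5048830 and chr10:5094164-5094463, both on the plus strand, are printed below with those of AKR1C1 (chr10:4963165-4963464, plus strand) and AKR1C2 (chr10:5003808-5004107, minus strand). Capitals mark the letters of the CCAAT box (CCAAT, or ATTGG on the other strand), which 34.6% of all 35116 promoter windows of this length hold.
AKR1C3 first window: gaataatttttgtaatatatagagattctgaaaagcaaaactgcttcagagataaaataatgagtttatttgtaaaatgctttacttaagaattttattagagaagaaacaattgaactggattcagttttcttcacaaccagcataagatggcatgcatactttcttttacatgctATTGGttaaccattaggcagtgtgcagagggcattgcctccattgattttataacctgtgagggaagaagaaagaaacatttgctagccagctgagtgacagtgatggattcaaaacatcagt
AKR1C3 second window: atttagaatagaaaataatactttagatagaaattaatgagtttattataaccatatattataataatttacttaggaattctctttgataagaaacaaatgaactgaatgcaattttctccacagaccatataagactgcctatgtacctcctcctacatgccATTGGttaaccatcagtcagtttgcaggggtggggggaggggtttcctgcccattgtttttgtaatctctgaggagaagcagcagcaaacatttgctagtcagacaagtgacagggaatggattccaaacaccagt
AKR1C1 window: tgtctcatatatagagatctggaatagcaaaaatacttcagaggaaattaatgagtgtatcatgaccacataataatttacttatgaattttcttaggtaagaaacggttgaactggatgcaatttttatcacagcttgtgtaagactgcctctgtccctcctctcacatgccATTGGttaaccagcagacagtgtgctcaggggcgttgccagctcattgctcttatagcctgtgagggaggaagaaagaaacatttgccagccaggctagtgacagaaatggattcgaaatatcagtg
AKR1C2 window: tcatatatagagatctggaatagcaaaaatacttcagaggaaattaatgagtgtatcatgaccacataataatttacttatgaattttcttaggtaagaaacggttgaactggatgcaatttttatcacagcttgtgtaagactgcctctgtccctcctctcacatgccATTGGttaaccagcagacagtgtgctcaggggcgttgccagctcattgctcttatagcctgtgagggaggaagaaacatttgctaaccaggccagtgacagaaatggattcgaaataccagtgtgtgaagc
All 4 windows hold 1 CCAAT box. Both AKR1C3 windows were at 69.4% identity to each other, and the AKR1C1 and AKR1C2 windows at 93.5%. In the AKR1C3 windows the GC content was 33.7% and 36.7% and there was no CpG, against a median of 58.7% GC and 14 CpG over all windows. None of the 4 windows held the androgen receptor half-site TGTTCT (14.8% of all windows did, on either strand) or the antioxidant response core TGACNNNGC (13.3%). As printed, the letters TATAA occurred 1 and 3 times in the AKR1C3 windows and TTATA, the same letters on the other strand, 1 and 2 times, where TTATAA counts under both. Of all windows, 20.4% held either at least once. These matches describe letters and not binding. In all, 7 of the 10 enzymes had a window in the table, with 13 windows between them.

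AKR1C3 reduces the androgen precursor androstenedione to testosterone. Its level was 0.538 CPM (0.354 to 0.782) in LNCaP, 0.345 CPM (0.214 to 0.528) in LNCaP-ENZ48, 11.1 CPM (10.2 to 11.99) in RES-A and 23.6 CPM (22.3 to 24.98) in RES-B. Both resistant lines were thus high and both parental libraries low, with no overlap of intervals between the pairs. Against LNCaP, RES-A was 20.6-fold higher (log2 ratio 4.37, 3.81 to 4.98). RES-B was 43.9-fold higher than LNCaP (5.46, 4.91 to 6.06). In cells called G1, both log2 ratios were larger, 5.30 (4.36 to 6.44) and 6.52 (5.59 to 7.65). They were smaller in S, 3.20 (2.10 to 4.55) and 4.52 (3.45 to 5.86), and in G2/M, 3.68 (2.80 to 4.71) and 4.17 (3.30 to 5.20). RES-B was also 2.13-fold above RES-A (1.09, 0.95 to 1.23). LNCaP-ENZ48 and LNCaP were not told apart (log2 ratio -0.64, -1.54 to 0.24), on 21 and 27 UMIs.

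**Figure D1:**
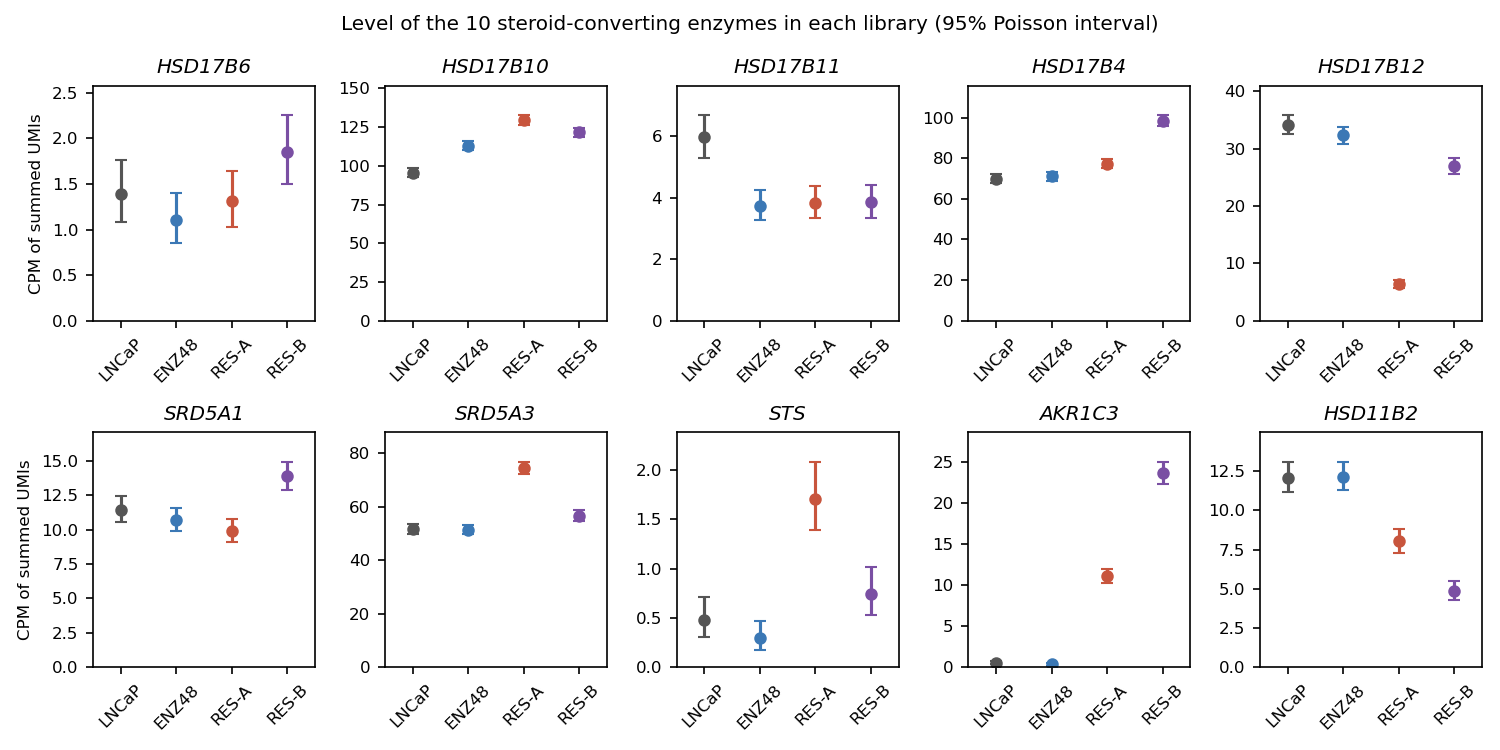
Level of each of the 10 enzymes in CPM of summed UMIs (vertical axes from 0, one scale per gene) in each of the 4 libraries. Points are the 4 libraries and bars are 95% Poisson intervals. AKR1C3 is near 0 in both parental libraries and at 11.1 and 23.6 CPM in RES-A and RES-B, while HSD17B12 is lowest in RES-A, at 6.37 CPM.

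The share of cells with an AKR1C3 UMI moved with level and depth, and a cell without a UMI may still hold the transcript. With every cell thinned at random to 5000 UMIs, 0.224% of LNCaP cells (4 of 1782, exact binomial interval 0.0612 to 0.574%), 0.162% of LNCaP-ENZ48 cells (0.0652 to 0.334%), 4.90% of RES-A cells (4.29 to 5.57%) and 9.16% of RES-B cells (8.29 to 10.1%) held an AKR1C3 UMI. Unthinned, the shares were 1.46%, 0.463%, 11.7% and 20.2%. The order of RES-B, RES-A and both parental libraries was the same as that of the levels. These cultures hold no second cell type in which to read the share that free RNA gives, and its part in the parental shares was not tested.

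Within RES-B the transcript was spread unevenly over cells. The variance of the thinned UMIs per cell over their mean was 1.32 in RES-B and 1.07 in RES-A, where counting error alone gives 1. For the other 9 enzymes this ratio lay between 0.971 and 1.14 in all libraries. In RES-B, 3689 cells had no AKR1C3 UMI, 312 had 1, 46 had 2 and 14 had 3 or more, with a maximum of 4. In RES-A, 211 cells had 1 UMI, 12 had 2 and 1 had 3.

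RES-B cells with and without an AKR1C3 UMI were then set side by side on the thinned counts, a split chosen after the spread was seen and given as a description. AKR1C1 was at 8.06 CPM in the 372 cells with AKR1C3 and at 2.11 CPM in the 3689 without (log2 ratio 0.97 to 2.82). AKR1C2 was at 4.84 and 1.63 CPM (0.31 to 2.68). In RES-A the same split did not tell either gene apart, with AKR1C1 at 5.36 and 3.22 CPM (log2 ratio -0.76 to 1.93) and AKR1C2 at 5.36 and 3.68 CPM (-0.95 to 1.73). For both genes the intervals of the lines overlap, so no difference between the lines is shown. The genes with the highest lower bound of the ratio, among those of at least 20 CPM, were led by MAOA, a monoamine oxidase (66.7 against 29.1 CPM), and UGT2B15, which glucuronidates dihydrotestosterone (44.6 against 23.6 CPM). Among the enzymes compared this way, only SRD5A3 was told apart, at 71.5 and 56.7 CPM (log2 ratio 0.06 to 0.60). HSD17B12 was at 25.8 and 27.3 CPM and HSD17B4 at 103.2 and 100.2 CPM. HSD17B10 was at 115.6 and 123.8 CPM and HSD11B2 at 3.23 and 4.72 CPM. SRD5A3 was not told apart by this split in RES-A (-0.38 to 0.29). In RES-A the same ranking was led by DEPDC1, at 58.9 CPM in the 224 cells with AKR1C3 and 31.4 CPM in the 4345 without, and HMMR, at 144.6 and 94.2 CPM.

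The AKR1C genes share sequence, so their counts are partly uncertain as levels. Of the 50-base stretches in the last 500 bases of the AKR1C3 transcript, near the end that these libraries read, 27.1% also occur in AKR1C1, AKR1C2 or AKR1C4. For AKR1C2, 53.2% occur in AKR1C1. For each of the 9 other enzymes the share in other genes was 0%. A read that maps to more than 1 gene is not counted, and that loss is common to all libraries.

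Likeness of profile was read for the enzymes with the widest ranges. The gene whose centred log2 profile over the 4 libraries was nearest to AKR1C3 was CRYAB, a small heat shock protein. It was at 0.558 and 0.279 CPM in the parental libraries (LNCaP first), 16.9 CPM in RES-A, with 27.2 CPM in RES-B, and its largest difference from the AKR1C3 profile was 0.47. ZNF503 and GPRC5C followed, with largest differences of 1.19 and 1.27. With 4 libraries such a ranking is a description only.

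STS, steroid sulfatase (chrX:7147237-7804358, plus strand, ENSG00000101846), releases androgen and estrogen precursors from their sulfates. Its range was the second widest, with 0.478 CPM (0.306 to 0.711) in LNCaP, 0.296 CPM (0.175 to 0.468) in LNCaP-ENZ48, 1.71 CPM (1.39 to 2.08) in RES-A and 0.742 CPM (0.528 to 1.01) in RES-B. RES-A stood above all other libraries, on 98 UMIs against 18 to 39. The ratio of RES-A to LNCaP was 3.58-fold (log2 1.84, 1.18 to 2.55), and RES-B was 2.30-fold below RES-A (-1.20, -1.78 to -0.65). RES-B and LNCaP were not told apart (0.63, -0.14 to 1.43). After thinning, 0.875% of RES-A cells and 0.139 to 0.281% of the cells of the other libraries held an STS UMI. The profiles nearest to STS were those of CDC42EP1, FUCA2 and CDK1, within 0.20, 0.27 and 0.30.

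SRD5A1 and SRD5A3 belong to the steroid 5-alpha-reductase family. SRD5A1, which makes dihydrotestosterone (chr5:6633427-6674386, plus strand), was at 11.5 CPM (10.5 to 12.4) in LNCaP, 10.7 CPM (9.91 to 11.6) in LNCaP-ENZ48, 9.92 CPM (9.12 to 10.8) in RES-A and 13.9 CPM (12.9 to 14.9) in RES-B. RES-B was highest, and the other 3 libraries lay within 1.15-fold of each other. In thinned cells RES-B was not above LNCaP (log2 ratio -0.03). A UMI was held by 5.96% of its cells (242 cells, 5.25 to 6.73%) and 6.17% of LNCaP cells (110 cells, 5.10 to 7.39%). RES-B was 1.40-fold above RES-A (log2 0.48, 0.32 to 0.65).

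SRD5A3, whose product is also the polyprenol reductase of dolichol synthesis (chr4:55346213-55373100, plus strand), was at 51.5 CPM in LNCaP, 51.4 CPM in LNCaP-ENZ48, 74.4 CPM in RES-A, with 56.5 CPM in RES-B. RES-A was highest, 1.44-fold above LNCaP (log2 0.53, 0.46 to 0.60). RES-B exceeded LNCaP by 1.10-fold (0.13, 0.06 to 0.21), and LNCaP-ENZ48 was not told apart from LNCaP (-0.005, -0.08 to 0.07). Neither reductase passed a 1.5-fold difference between any pair of libraries compared.

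HSD17B12 is the reductase of the elongation cycle that lengthens fatty acids and can also reduce estrone (chr11:43680680-43856617, plus strand, ENSG00000149084). It was at 34.1 CPM (32.5 to 35.8) in LNCaP, 32.3 CPM (30.9 to 33.7) in LNCaP-ENZ48, 6.37 CPM (5.73 to 7.05) in RES-A and 26.9 CPM (25.5 to 28.4) in RES-B. RES-A was thus set apart, 5.36-fold below LNCaP (log2 ratio -2.42, -2.59 to -2.26). RES-B was 4.23-fold above RES-A (2.08, 1.91 to 2.25) and 1.27-fold below LNCaP (-0.34, -0.45 to -0.24). Thinned, 14.3% of LNCaP cells, 14.4% of LNCaP-ENZ48 cells, 3.04% of RES-A cells and 12.7% of RES-B cells held an HSD17B12 UMI.

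The genes on both sides of HSD17B12 were read as well. Over 50 expressed protein-coding genes within a span of 30.0 Mb, the median log2 ratio of RES-A to LNCaP, relative to all expressed protein-coding genes, was -0.01. HSD17B12 itself was at -2.44 on this relative scale. In RES-B the same median was -0.44 and HSD17B12 was at -0.46. Thus in RES-A the genes around HSD17B12 lay near the median of all genes while HSD17B12 did not, and in RES-B they lay below it together with HSD17B12. For AKR1C3 the 31 genes around it had a relative median of 0.12 in RES-B and 0.18 in RES-A. These 31 do not hold its nearest relatives AKR1C1 and AKR1C2, which averaged less than 10 CPM and were higher in both resistant lines (values further on). Whether DNA copies of these stretches differ between the lines was not tested.

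**Figure D2:**
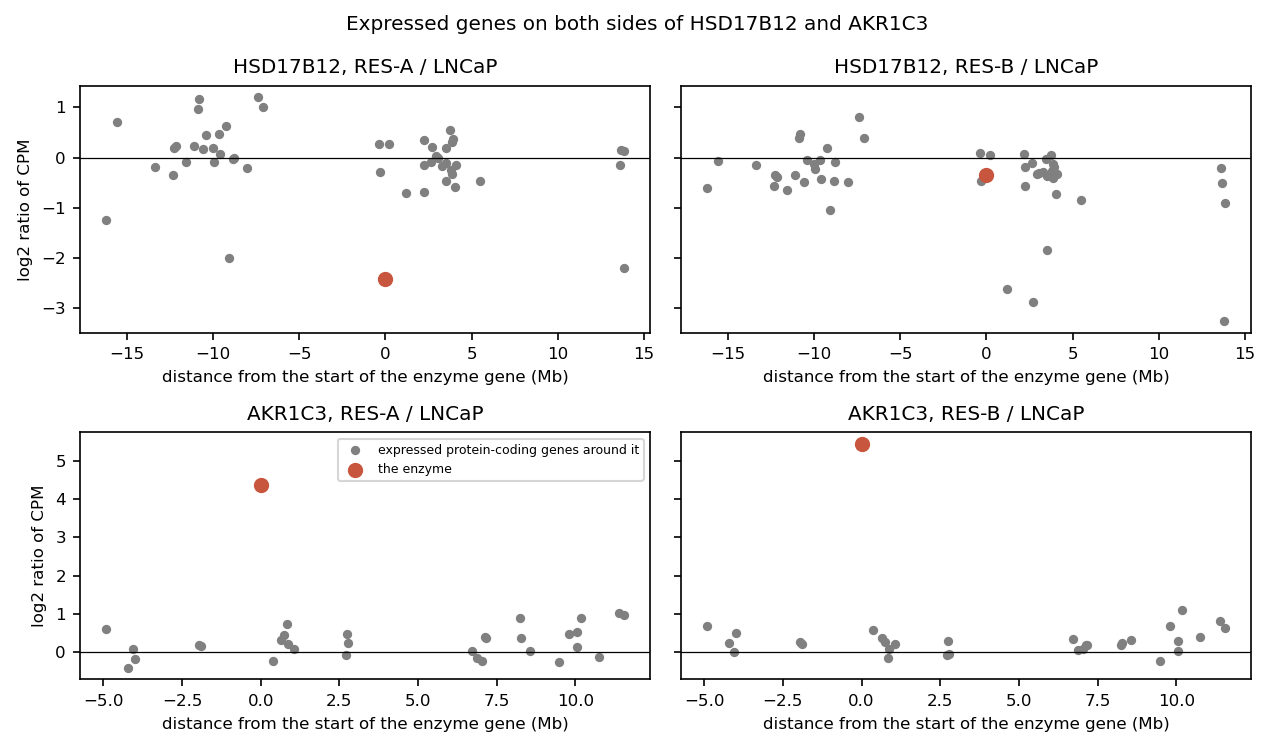
Log2 ratio of CPM for expressed protein-coding genes by distance in Mb from the start of HSD17B12 (top) and AKR1C3 (bottom), RES-A over LNCaP (left) and RES-B over LNCaP (right). Grey points are the genes around with a mean of at least 10 CPM, which leaves out AKR1C1 and AKR1C2, and the coloured point is the enzyme, which stands away from most of its neighbours in RES-A for HSD17B12 (-2.42) and in both lines for AKR1C3 (4.37 and 5.46).

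HSD11B2 inactivates cortisol by oxidising it to cortisone (chr16:67430652-67437553, plus strand, ENSG00000176387). Its level was 12.1 CPM (11.1 to 13.1) in LNCaP, 12.1 CPM (11.3 to 13.1) in LNCaP-ENZ48, 8.02 CPM (7.31 to 8.79) in RES-A and 4.89 CPM (4.31 to 5.52) in RES-B. Both resistant lines were lower than both parental libraries, RES-B more so. RES-A was 1.51-fold below LNCaP (log2 ratio -0.59, -0.77 to -0.41). RES-B was 2.47-fold below LNCaP (-1.31, -1.52 to -1.09) and 1.64-fold below RES-A (-0.71, -0.94 to -0.49). A UMI was found in 6.45% of thinned LNCaP cells, 6.002% of LNCaP-ENZ48 cells, 3.94% of RES-A cells and 2.19% of RES-B cells. HSD11B1, which runs the reaction in reverse, had no UMI in any library, which allows up to 0.0493 to 0.0598 CPM (3 UMIs per library).

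HSD17B11, which oxidises androstanediol and sits on lipid droplets (chr4:87336515-87391188, minus strand, ENSG00000198189), was highest in LNCaP. It was at 5.96 CPM (5.30 to 6.67) in LNCaP, 3.73 CPM (3.26 to 4.25) in LNCaP-ENZ48, 3.82 CPM (3.33 to 4.36) in RES-A and 3.84 CPM (3.33 to 4.41) in RES-B. LNCaP was 1.55- to 1.60-fold above each of the others, which were not told apart among themselves. The difference was not seen in thinned counts: 2.13% of LNCaP cells and 1.90 to 2.10% of the cells of the other libraries held a UMI, and the log2 ratios to LNCaP were -0.13, -0.01 and -0.11. This rested on 38 LNCaP cells with a UMI. Taken as a mean of the CPM of each cell, not thinned, HSD17B11 was at least 1.5-fold below LNCaP in each other library. LNCaP cells were also the deepest, and the part of depth in the difference was not tested.

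HSD17B11 was higher in G2/M than in G1 in all libraries but RES-A. Cells called G1 had 4.08 CPM in LNCaP, 2.60 CPM in LNCaP-ENZ48, 4.13 CPM in RES-A, with 3.38 CPM in RES-B. Cells called G2/M had 13.7 CPM (11.5 to 16.2) in LNCaP, 12.5 CPM (10.1 to 15.4) in LNCaP-ENZ48, 4.08 CPM (2.98 to 5.46) in RES-A and 6.76 CPM (5.22 to 8.62) in RES-B. The log2 ratio of RES-A to LNCaP was 0.02 (-0.33 to 0.37) in G1 and -1.75 (-2.27 to -1.25) in G2/M. That of LNCaP-ENZ48 to LNCaP was -0.65 (-1.01 to -0.29) in G1 and -0.13 (-0.53 to 0.27) in G2/M.

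The other large differences were present within each phase. AKR1C3 was at 10.6 CPM in G1, 9.53 in S and 14.3 in G2/M in RES-A, and at 24.5, 23.9 and 20.1 CPM in RES-B, against 0.268 to 1.12 CPM in LNCaP. HSD17B12 in RES-A stayed between 6.14 and 7.16 CPM over the 3 phases, against 26.2 to 37.6 CPM in LNCaP. HSD11B2 in RES-B lay between 4.71 and 5.41 CPM, against 10.6 to 12.8 CPM in LNCaP. G1 was called for 69.1% of LNCaP cells, 80.4% of LNCaP-ENZ48 cells, 65.1% of RES-A cells and 71.0% of RES-B cells.

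**Figure D3:**
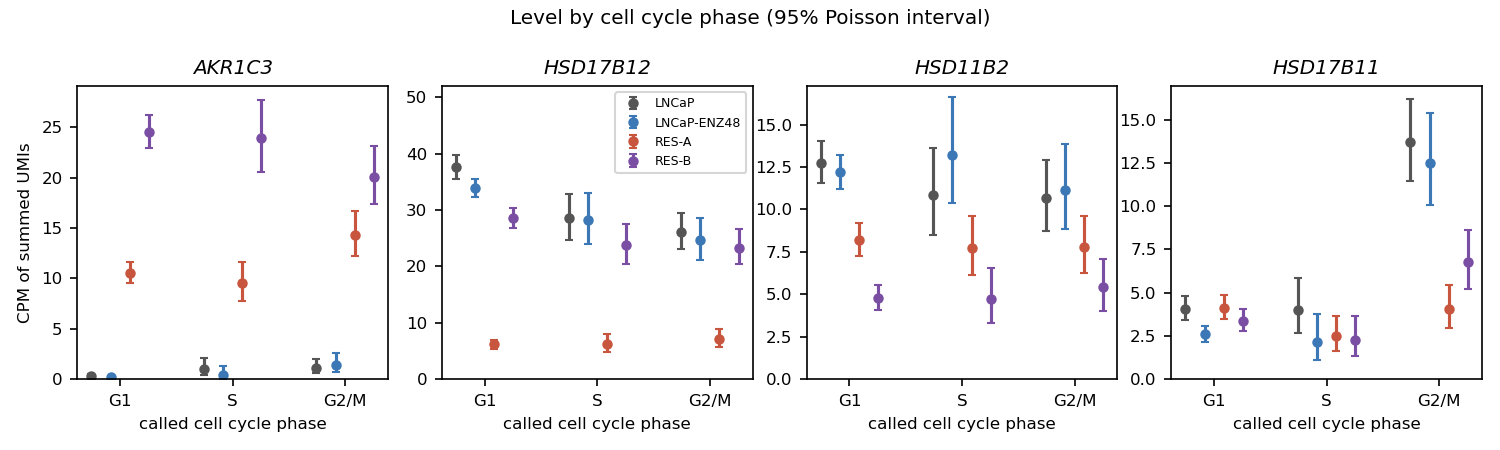
Level in CPM of summed UMIs (vertical axes from 0) of AKR1C3, HSD17B12, HSD11B2 and HSD17B11 in cells called G1, S or G2/M, with 95% Poisson intervals and 1 colour per library. For HSD17B11 the libraries stand furthest apart in G2/M, from 4.08 CPM in RES-A to 13.7 CPM in LNCaP.

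The remaining dehydrogenases moved less. HSD17B4, the multifunctional enzyme of peroxisomal fatty acid oxidation that also oxidises estradiol (chr5:119452465-119637199, plus strand), was at 69.9 CPM in LNCaP, 71.0 CPM in LNCaP-ENZ48, 77.3 CPM in RES-A, with 98.3 CPM in RES-B. RES-B was highest, 1.41-fold above LNCaP (log2 0.49, 0.43 to 0.56), and LNCaP-ENZ48 was not told apart from LNCaP. In G2/M the ratio of RES-B to LNCaP was smaller, 0.19 (0.03 to 0.34), than the 0.57 (0.49 to 0.64) in G1.

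HSD17B10, a mitochondrial dehydrogenase and subunit of mitochondrial RNase P (chrX:53431258-53434370, minus strand), was at 95.6 CPM in LNCaP, 113 CPM in LNCaP-ENZ48, 130 CPM in RES-A, with 122 CPM in RES-B. All 3 ENZ-exposed libraries were above LNCaP, by 1.18-, 1.36- and 1.27-fold. Scaled by library totals, HSD17B10 lay above LNCaP after 48 h of ENZ (log2 0.24, 0.19 to 0.30). On that scale it was the only enzyme of the 10 to do so by more than the counting interval. With TMM scaling, which raises all ratios of LNCaP-ENZ48, HSD17B4 was at 0.12 and SRD5A3 at 0.09. Both values lay above their intervals on library totals, which ended at 0.09 and 0.07, so being the only one depends on the scaling.

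HSD17B6, which can turn androstanediol back into dihydrotestosterone (chr12:56752161-56787790, plus strand), was at 1.39, 1.10, 1.31 and 1.85 CPM, on 67 to 97 UMIs per library. RES-B was highest and LNCaP-ENZ48 lowest, and neither RES-A nor RES-B was told apart from LNCaP (-0.09, -0.58 to 0.40, and 0.40, -0.05 to 0.87).

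Taking the 10 enzymes by comparison, a difference was counted where it reached 1.5-fold and its counting interval left out 1. This rule was read against all 13767 genes that averaged 0.5 CPM or more, the level that all 10 enzymes pass. The share of all genes past it was 2.83% higher and 5.57% lower after 48 h of ENZ, and 0 and 1 (HSD17B11) of the 10 enzymes were past it. HSD17B11 was not past 1.5-fold in any of the comparisons with LNCaP in thinned cells, nor in either resistant line in cells called G1, and HSD11B2 in RES-A was at a log2 ratio of -0.56, just under 1.5-fold, with all barcodes kept. In RES-A against LNCaP, 17.8% of genes were higher and 15.5% lower, and 2 enzymes (STS and AKR1C3) were higher and 3 (HSD17B11, HSD17B12 and HSD11B2) lower. In RES-B against LNCaP, 18.9% of genes were higher and 12.4% lower, and 1 enzyme (AKR1C3) was higher and 2 (HSD17B11 and HSD11B2) lower. In RES-B against RES-A, 15% of genes were higher and 10.5% lower, and 2 enzymes (HSD17B12 and AKR1C3) were higher and 2 (STS and HSD11B2) lower. The counts of enzymes are given as a description beside these shares, and the 3 comparisons against LNCaP share that library.

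Only 5 of the 10 enzymes (HSD17B4, HSD17B10, HSD17B12, SRD5A1 and SRD5A3) had a mean of at least 10 CPM, and among these only HSD17B12 passed 1.5-fold, lower in RES-A and higher in RES-B against RES-A. Over the 7460 genes with that mean, 1.01% were at least 1.5-fold higher and 3.22% lower after 48 h of ENZ, 11.3% and 11.5% in RES-A, 14.2% and 8.26% in RES-B, and 12.2% and 5.82% in RES-B against RES-A. The median log2 ratio of the 10 enzymes was -0.09 after 48 h of ENZ, 0.03 in RES-A and 0.31 in RES-B against LNCaP, and 0.18 in RES-B against RES-A. Over the 13767 genes of at least 0.5 CPM it was -0.08, 0.03, 0.10 and 0.08. The 5 enzymes above 10 CPM had medians of -0.005, 0.15, 0.28 and 0.35 in the same order. Over the 7460 genes above 10 CPM the median was -0.07, 0.02, 0.11 and 0.09. TMM scaling would set the RES-B median of all genes at 0.01, and ratios to LNCaP in RES-B are to be read against this shift.

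**Figure D4:**
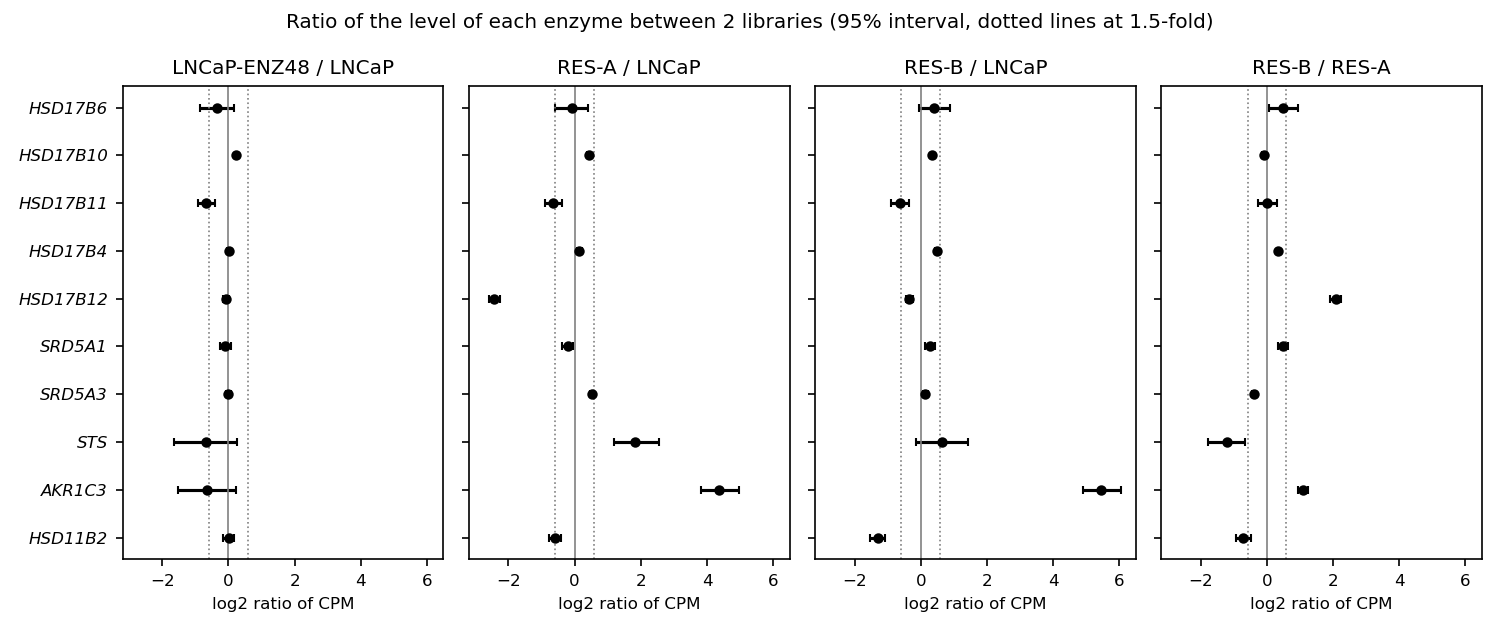
Log2 ratio of CPM (horizontal axis) for each of the 10 enzymes in the 4 comparisons, with 95% intervals that cover counting error only. Dotted lines mark 1.5-fold. AKR1C3 lies at 4.37 and 5.46 in RES-A and RES-B against LNCaP, and HSD17B12 at -2.42 in RES-A.

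The other genes of the pathway give the setting. In 11 lists of enzymes and transporters, 40 of 88 genes averaged 10 CPM or more. Of these 40, 1 was at least 1.5-fold higher and 1 lower after 48 h of ENZ, 9 higher and 5 lower in RES-A, 14 and 5 in RES-B, and 7 and 5 in RES-B against RES-A. Over all 7460 genes at that level, the shares higher and lower were 1.01% and 3.22%, 11.3% and 11.5%, 14.2% and 8.26%, and 12.2% and 5.82% in the same order, and the list counts below are to be read beside them. Enzymes of the first steps from cholesterol were scarce. CYP17A1 was at 0 to 0.0398 CPM, HSD3B2 at 0 to 0.0523 CPM and STAR, which carries cholesterol into mitochondria, at 0 to 0.349 CPM. CYP11A1 was at 0.518 CPM in LNCaP, on 26 UMIs, and at 0 to 0.0493 CPM in the other libraries.

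Among 5 measured genes of upstream steroid synthesis, FDXR, which feeds electrons to mitochondrial P450 enzymes, was the one past 1.5-fold: 49.2 CPM in LNCaP, 39.3 CPM in LNCaP-ENZ48, 43.2 CPM in RES-A, with 25.1 CPM in RES-B. Among 6 other hydroxysteroid dehydrogenases, 2 were higher and 1 lower in RES-A and 3 higher in RES-B. HSD17B1, which activates estrone, was at 16.2, 16.9, 34.9 and 31.1 CPM in the 4 libraries, so it was higher in both resistant lines (2.16- and 1.92-fold). HSD3B7, a bile acid dehydrogenase, was at 13.4, 14.6, 36.7 and 21.5 CPM. HSD17B7, of cholesterol synthesis, was at 21.8, 19.2, 13.5 and 23.0 CPM, low in RES-A. NSDHL, also of cholesterol synthesis, was at 15.8, 14.4, 15.3 and 24.4 CPM, high in RES-B, and DHRS11 at 11.9, 12.6, 8.30 and 12.9 CPM. HSD17B14, RDH5 and CYP3A5, of 1 to 10 CPM on average, passed 1.5-fold as well, with HSD17B14 at 3.66, 6.16, 2.15 and 2.02 CPM.

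The relatives of AKR1C3 inactivate dihydrotestosterone, and both were higher in the resistant lines at low levels. AKR1C1 was at 0.279, 0.148, 3.19 and 3.40 CPM, which is 11.4-fold above LNCaP in RES-A and 12.2-fold in RES-B. AKR1C2 was at 0.359, 0.279, 3.44 and 2.36 CPM, 9.58- and 6.58-fold above LNCaP. Unlike AKR1C3, AKR1C1 was not told apart between RES-A and RES-B (log2 ratio 0.09, -0.21 to 0.40).

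The UGT2B genes, whose enzymes attach glucuronate to androgens, differed between the resistant lines. UGT2B15 was at 11.0 CPM in LNCaP, 33.9 CPM in LNCaP-ENZ48, 124 CPM in RES-A, with 26.0 CPM in RES-B. UGT2B11 was at 3.59, 3.76, 126 and 9.02 CPM and UGT2B28 at 0.438, 0.197, 12.3 and 0.380 CPM, so that RES-A was far above the rest. UGT2B10 had the widest rise of the list, at 0.339, 0.378, 29.4 and 1.64 CPM, 86.9-fold above LNCaP in RES-A, and UGT2B7 was at 0.239, 0.214, 3.19 and 0.171 CPM. UGT2B17 was at 21.5, 28.2, 25.03 and 5.38 CPM. It was below RES-A in RES-B like the others (4.65-fold), but, unlike UGT2B15, UGT2B11 and UGT2B10, it was also below LNCaP there (log2 ratio -2.19 to -1.81). UGDH, which makes the glucuronate donor, was at 64.3, 63.0, 45.4 and 70.4 CPM. These genes are near copies of each other and their counts are uncertain as levels.

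**Figure D5:**
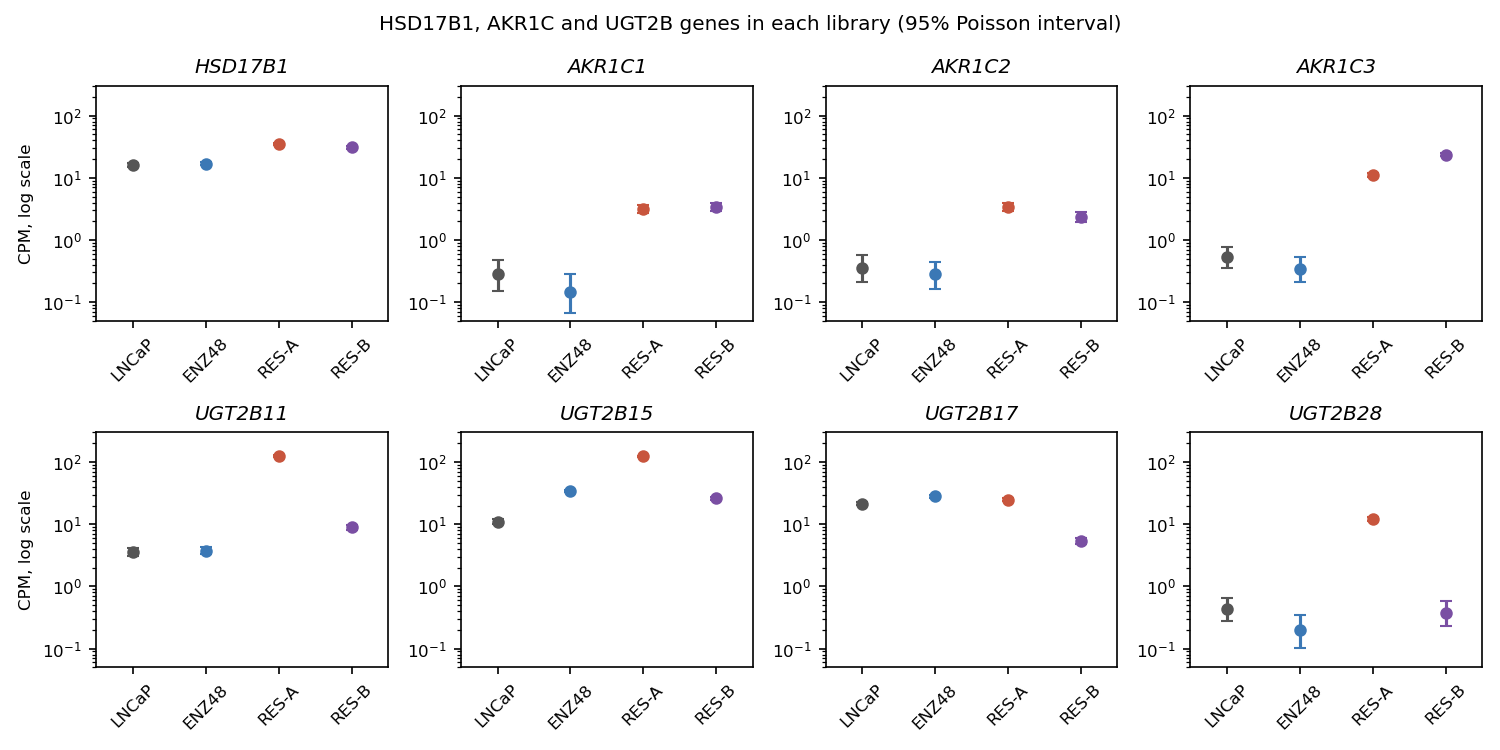
Level in CPM (log axis) of HSD17B1, the AKR1C genes and UGT2B genes in each of the 4 libraries, with 95% Poisson intervals. AKR1C3 is highest in RES-B, at 23.6 CPM, whereas UGT2B11 (126 CPM) and UGT2B15 (124 CPM) are highest in RES-A.

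Genes of the non-steroid work of the enzymes were read in the same way. Of 6 measured elongation genes, 1 was higher and 3 lower in RES-A and 1 higher and 2 lower in RES-B. ELOVL6 was at 13.7, 13.1, 33.5 and 45.6 CPM in the 4 libraries, high where HSD17B12 was low (RES-A) and also where it was not (RES-B). ELOVL5 was lower in all 3 ENZ-exposed libraries, at 49.0, 26.2, 21.3 and 30.3 CPM. HACD2 and HACD3, of the dehydratase step, were lowest in RES-A, at 27.5, 21.2, 16.3 and 18.3 CPM and at 95.3, 90.8, 61.8 and 99.3 CPM. Below 10 CPM, ELOVL7 was at 8.17, 1.45, 0.523 and 0.361 CPM and HACD1 at 0.359, 0.970, 5.96 and 1.07 CPM. In the peroxisomal oxidation list of HSD17B4, 3 of 6 measured genes were higher in RES-B, among them SCP2, a sterol carrier with thiolase activity, at 107, 118, 132 and 185 CPM. ABCD3, a peroxisomal transporter, was higher in both resistant lines, at 15.9, 19.6, 27.3 and 25.4 CPM. AMACR and EHHADH, below 10 CPM on average, were higher in both resistant lines, at 1.79, 3.32, 10.1 and 9.26 CPM and at 0.876, 1.71, 7.38 and 2.43 CPM, and ACOX3 was lower in RES-A. Of 5 measured genes of dolichol synthesis, the list of SRD5A3, 1 was higher and 1 lower in RES-A and 3 higher and 1 lower in RES-B. NUS1, a subunit of the enzyme that builds the dolichol chain, was at 19.8, 16.7, 26.1 and 37.0 CPM. DOLK and DPM1 were higher in RES-B as well, DPM1 also in RES-A, and DPAGT1 was lower in both resistant lines, at 14.5, 12.4, 8.53 and 8.31 CPM. ALG5 differed by 1.71-fold between the resistant lines, with RES-B the higher, and below 10 CPM DHDDS was higher in RES-B and DOLPP1 lower in RES-A. TRMT10C, the other measured subunit of mitochondrial RNase P beside HSD17B10, stayed between 71.6 and 100.3 CPM.

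Of the sulfate genes, 2 of 5 measured were higher in both resistant lines. SULT1A1, a phenol sulfotransferase, was at 21.6, 24.7, 39.2 and 36.0 CPM, and PAPSS1, which makes the sulfate donor, at 27.6, 30.0, 45.7 and 49.8 CPM. STS, which removes sulfate, was highest in RES-A (above). Of 2 measured glucocorticoid enzymes, H6PD and HSD11B1L, neither was past 1.5-fold against LNCaP. No steroid uptake gene averaged 10 CPM, the highest being SLCO4A1 at 6.81 to 9.80 CPM. Beside UGT2B7 (above), the genes that averaged less than 1 CPM and passed 1.5-fold were CYP11A1, STAR, RDH16, AKR1D1, PAPSS2, SLCO3A1, ACOX2, ELOVL2 and ELOVL4. Their intervals left out 1, at no more than 2.32 CPM in any library. HSD3B1, HSD17B2, HSD17B13, SRD5A2, CYP19A1 and SLCO2B1, at no more than 0.179 CPM, passed 1.5-fold with intervals that held 1 or on too few UMIs for a ratio.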

How the data were processed

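Single-cell RNA sequencing counts of 4 libraries were used, with groups taken from the sample titles. The authors made the deposited UMI counts from droplet libraries that read the 3′ end of transcripts, with Cell Ranger 3.0.2 and a GRCh38 reference, per the submitters' processing notes, the labels and the file headers. Cells were kept by the study's limits per library on genes, UMIs and mitochondrial share. LNCaP had a minimum of 16000 UMIs and the other libraries one of 5000, so LNCaP cells are deeper in part by this choice. Doublets were not removed, since Scrublet (scanpy 1.11.5) called 0 to 6 cells per library. UMIs were summed per library. Ratios carry exact conditional binomial (Clopper-Pearson) intervals, tested on simulated counts, and cover counting error only. With 1 library per group no test was run, and cells were not used as replicates. For shares, spread and phases (Seurat 5.3.0 lists), cells were thinned to 5000 UMIs. Coordinates came from GENCODE 44 by gene ID and promoter windows from RefSeq. The 10 enzymes, the pathway and marker lists and the rules for naming genes were chosen with earlier results of these data known. All 10 enzymes are named, as are pathway list genes with the largest ratios or past 1.5-fold, KLK2, KLK3, TMPRSS2 and FKBP5, and the 3 genes nearest in profile to AKR1C3 and STS. Cell type markers are given as sums or ranges, and some list genes are not reported here. Alternatives, some of them with edgeR 4.0.16 and DESeq2 1.42.0, changed the cells, the scaling, the depth, the fold and the filter. The rule with an interval at 0.5 CPM, the mean over cells and the split of cells by AKR1C3 were chosen after seeing the data.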

Additional observations from a re-analysis of the deposited data

Results flagged for a closer look

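SRD5A1 moved in opposite directions in the resistant lines. Its log2 ratio to LNCaP was -0.21 (-0.38 to -0.04) in RES-A and 0.28 (0.12 to 0.44) in RES-B, and both counting intervals left out 0. With 1 library per line the difference was not tested. The direction in RES-A was the same under all 9 alternatives of cells, depth and scaling (-0.35 to -0.20). In RES-B the sign changed in thinned cells (-0.03), where 242 RES-B and 110 LNCaP cells held a UMI. Of the phases, these alternatives held only G1. The RES-A ratio was 0.13 (-0.31 to 0.58) in S and -0.45 (-0.78 to -0.11) in G2/M. The RES-B ratio was 0.32 (-0.14 to 0.79) in S and -0.02 (-0.34 to 0.31) in G2/M.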

How the results depend on the processing

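Each of 40 ratios (10 enzymes in 4 comparisons) was recomputed under 9 alternatives. Of 360 values, 313 stayed within the counting interval, 45 moved outside it and 2 reversed, counting as reversed only a change of sign where the counting interval left out 0: HSD17B11 in RES-A at 0.020 in cells called G1 and SRD5A1 in RES-B at -0.034 in thinned cells. Where the interval held 0, 27 further values (9 ratios) changed sign, 8 of them outside the interval, among them STS in RES-B at -0.19 and HSD17B4 after 48 h of ENZ at -0.17 in thinned cells, and HSD17B6 in RES-B at -0.14 in G1 cells. The cause was not tested. AKR1C3 stayed between 4.29 and 5.30 in RES-A and between 5.35 and 6.52 in RES-B, and HSD17B12 between -2.61 and -2.40 in RES-A. Of the phases, only G1 was among these alternatives. In S and G2/M the AKR1C3 ratio was lower, at 3.20 and 3.68 in RES-A and at 4.52 and 4.17 in RES-B.

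Without the interval rule, 0 enzymes were at least 1.5-fold higher and 3 lower after 48 h of ENZ, 2 and 3 in RES-A, 2 and 2 in RES-B, and 2 and 2 in RES-B against RES-A. The share of all genes past 1.5-fold without that rule was taken only at a mean of 10 CPM (above). These counts of enzymes are therefore a description without a matching share. After 48 h of ENZ the 3 lower became 1 with TMM, DESeq2 size factors or the interval rule, 0 at 2-fold or with a mean of at least 10 or 50 CPM, and 2 with all barcodes, with 1 filter for all libraries or in thinned cells. In RES-A the 2 higher became 0 at 10 and 50 CPM, and the 3 lower became 1 at 2-fold and at 10 CPM, 0 at 50 CPM and 2 (without HSD11B2) with all barcodes or 1 filter for all libraries. In G1 cells and in thinned cells they were 3, with HSD17B6 in place of HSD17B11. In RES-B the 2 higher became 1 in G1 cells, with either scaling, without mitochondrial and ribosomal protein genes in the total, in thinned cells, as a mean over cells, at 2-fold and with the interval rule, and 0 at 10 and 50 CPM. The 2 lower became 1 in G1 cells, in thinned cells and at 2-fold, and 0 at 10 and 50 CPM. In RES-B against RES-A the 2 higher became 4 in G1 cells, 3 in thinned cells, 1 at 10 CPM and 0 at 50 CPM, and the 2 lower became 1 at 2-fold and 0 at 10 and 50 CPM. The filters on the mean leave fewer enzymes to count.

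For the other pathway genes, a minimum of 1 CPM in place of 10 gave 5 higher and 4 lower after 48 h of ENZ (1 and 1), 18 and 9 in RES-A (9 and 5), 22 higher in RES-B (14) and 10 lower in RES-B against RES-A (5). At 50 CPM these were 0 and 0, 0 and 1, 1 and 0, and 2 and 0. No share of all genes was taken at 1 or 50 CPM, so these counts are a description only. Phases called in each library alone kept all 120 ratios within their intervals. No paired analysis was possible because each group is 1 library. Depth limits STS, HSD17B6 and the parental AKR1C3 levels, which rest on fewer than 100 UMIs.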
